A study of Mus musculus with 194 samples.

Results

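Transposon insertions in 5 genes of the neurexin and neuroligin families, Nrxn2, Nrxn3, Nlgn1, Nlgn2 and Nlgn3, were compared across mouse brain and a neuroblastoma line. The genes were chosen by name. An insertion was assigned to a gene when it lay in the gene body or within 10 kb on either side, and this span is called its locus. The 5 genes are among 21631 protein-coding genes counted in the same way. Their loci held 64813 of the 21931733 insertions of all tables, or 0.296%.

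Neurexins are adhesion proteins of the presynaptic membrane, and neuroligins are their partners on the postsynaptic side. Pairs of the proteins bind across the synaptic cleft and help to organise release sites and receptors. Nlgn1 is best known from excitatory synapses, Nlgn2 from inhibitory synapses and Nlgn3, an X-linked gene, from both, and astrocytes also express neuroligins.

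The series used calling cards, in which a transposase delivered by virus leaves transposons at TTAA sequences, so that each insertion records where the transposase met the genome. All mice received adeno-associated virus at birth or 1 day later, and the labels do not name the transposase. Insertions were read from RNA (self-reporting transposon, SRT) in every group except BrokenHeart, which was read from DNA by inverse PCR with barcoded transposons. Each cortex read from RNA was cut into 10 parts that were indexed apart and then combined into 1 table per animal.

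Insertions were scaled to 1000000 insertions of a table, abbreviated IPM, and the level of a locus is its IPM per 100 kb of locus. C57bl6J (2 animals) received viruses that do not need Cre recombinase. Syn1Cre and GFAPCre (6 animals each) are named by Cre lines used for neurons and for astrocytes, and Syn1CreNeg and GFAPCreNeg (6 each) are labelled as Cre-negative. Syn1Cre_SP1_P10 (3) and Syn1Cre_SP1_P28 (4) are Syn1Cre animals labelled SP1, a transcription factor that binds GC boxes, at postnatal day 10 and 28. In calling cards such a label stands for a factor fused to the transposase, and the labels do not describe the construct. Rbp4Cre_TRAP (4) is whole forebrain of a Cre line used for deep-layer neurons, read as RNA after TRAP. Frontflip_GFAPCre and Frontflip_GFAPCreNeg (3 each) carry a further construct named Frontflip, and BrokenHeart (3) is cortical DNA. The labels give no age for the groups other than those labelled SP1. N2a, a mouse neuroblastoma line, has 1 table that combines several experiments and therefore has no replicate.

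Depth ran from 2341 to 2186743 insertions per animal, lowest in Frontflip_GFAPCreNeg (2341 to 9601), Rbp4Cre_TRAP (24408 to 57014), BrokenHeart (42511 to 98197) and Syn1Cre_SP1_P10 (86842 to 95331). No pair among the 85 pairs of animals of 1 group held identical values. Animals listed together under the same sample entry were treated as sharing a library pool, a reading of the labels, which do not name pools. By this reading Syn1Cre shared no pool with GFAPCre, Syn1CreNeg or the SP1 groups. The pool therefore cannot be told apart from the group in those contrasts. In tissue, fewer cells of a type and fewer insertions read per cell cannot be told apart either. The summed level of 7 interneuron markers was 544 to 695 IPM in Syn1Cre and 104 to 151 in GFAPCre, and that of 8 astrocyte markers 577 to 1934 and 783 to 1601. No gene of the neuron, interneuron or astrocyte lists was at 0 in these groups or in their Cre-negative controls.

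The genes differ widely in length. Nrxn2 (gene identifier 18190) lies at chr19:6418756-6533217 in GRCm38 and Nrxn3 (18191) at chr12:88722701-90334935. Nlgn1 (192167) lies at chr3:25421808-26332866, Nlgn2 (216856) at chr11:69823123-69837784 and Nlgn3 (245537) at chrX:101299179-101321350. Nrxn3 and Nlgn1 span 1612 kb and 911 kb and held 24168 and 38545 insertions over all tables. Nrxn2, Nlgn2 and Nlgn3 span 114 kb, 14.7 kb and 22.2 kb and held 1138, 440 and 522. The flanks of the short genes hold other genes: Rasgrp2 and Slc22a12 beside Nrxn2, Med12 beside Nlgn3, and Gm39566, Spem2, Spem1, Tmem256 and Plscr3 beside Nlgn2. Insertions there count for both.

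Among the neurexins, Nrxn2 had its highest levels in the SP1 groups. They were 77.1, 99.4 and 78.0 in the 3 Syn1Cre_SP1_P10 animals and 73.8, 95.6, 113 and 86.3 in the 4 Syn1Cre_SP1_P28 animals. All of these lay above every Syn1Cre animal (lowest 13.3, median 26.6, highest 47.0). Means in the other well-sampled groups were 58.5 ± 7.87 (SD, n = 6) in Syn1CreNeg, 54.1 ± 17.3 (n = 6) in GFAPCreNeg, 41.5 ± 8.34 (n = 6) in GFAPCre and 21.3 ± 3.20 (n = 2) in C57bl6J. When all animal groups were ranked by mean, neighbours overlapped in their animals except Syn1Cre_SP1_P10 and Syn1CreNeg. The SP1 animals did not stand clear of all others, as GFAPCreNeg animal 6 had 85.8 and BrokenHeart animal 1 had 76.6. The lowest GFAPCre animal (34.1) lay above the highest of C57bl6J (23.6). Frontflip_GFAPCreNeg gave 0, 77.5 and 635 from 3 insertions in all, which sets no level.

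At Nrxn3 the SP1 groups had the lowest means of the animal groups. Its level was 36.7, 36.2 and 35.3 in Syn1Cre_SP1_P10 and 38.3, 37.7, 33.1 and 48.8 in Syn1Cre_SP1_P28. Syn1Cre animals ranged from 58.9 to 76.8 with a median of 70.5, and no SP1 animal reached them. GFAPCre (77.0 ± 8.52, n = 6), GFAPCreNeg (73.1 ± 11.5, n = 6), Syn1CreNeg (66.2 ± 14.6, n = 6) and C57bl6J (63.4 ± 4.09, n = 2) lay close together and overlapped. Rbp4Cre_TRAP had 58.5 ± 12.2 (n = 4) and N2a 15.3.

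Nlgn1 was the densest of the 5 loci in every cortex group not labelled SP1. The Cre-negative groups were high, with a lowest, median and highest animal of 240, 268 and 288 in Syn1CreNeg and 242, 266 and 339 in GFAPCreNeg. GFAPCre animals lay at 202, 220 and 244 and Syn1Cre animals at 142, 159 and 225 in the same order. Every Syn1Cre animal lay below every Syn1CreNeg animal, whereas GFAPCre overlapped both its control and Syn1Cre. Levels were 134 and 144 in C57bl6J, and 149, 130, 110 and 176 in Rbp4Cre_TRAP. The lowest animals were those of Syn1Cre_SP1_P10 (74.2, 93.3 and 92.4) and BrokenHeart (84.8, 89.7 and 88.4), both clear of C57bl6J. N2a stood at 30.5.

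Nlgn2 separated the SP1 groups most widely. Syn1Cre_SP1_P10 animals had 332, 611 and 514 and Syn1Cre_SP1_P28 animals 411, 477, 648 and 370. No other animal exceeded 107, the highest of Syn1CreNeg. Syn1Cre had 25.0 ± 6.11 (n = 6), GFAPCre 34.0 ± 10.7 (n = 6), C57bl6J 35.8 ± 2.14 (n = 2) and N2a 89.4. Frontflip_GFAPCreNeg held 0 insertions, which allows a level of up to 492 for 3 counts over 17607 insertions, a limit that covers counting error alone.

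Nlgn3 varied less between groups. Its mean was 112 ± 21.9 (n = 4) in Syn1Cre_SP1_P28, 69.2 ± 39.5 (n = 3) in Syn1Cre_SP1_P10, 58.7 ± 11.04 (n = 6) in Syn1Cre, 53.6 ± 14.4 (n = 6) in GFAPCre and 38.3 ± 8.66 (n = 2) in C57bl6J. The 4 Syn1Cre_SP1_P28 animals (102, 109, 144 and 94.4) lay above the highest Syn1Cre animal at 74.9, and the Syn1Cre_SP1_P10 animals (27.3, 106 and 74.6) overlapped Syn1Cre. Nlgn3 still did not pass the test of day 28 against Syn1Cre given below. How many of all loci separate in this way, here or above, was not counted. BrokenHeart held 0 insertions, which allows up to 35.8 for 3 counts over 198981 insertions, so a level like the 32.2 and 44.5 of C57bl6J was at the edge of what its depth could show.

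**Figure D1:**
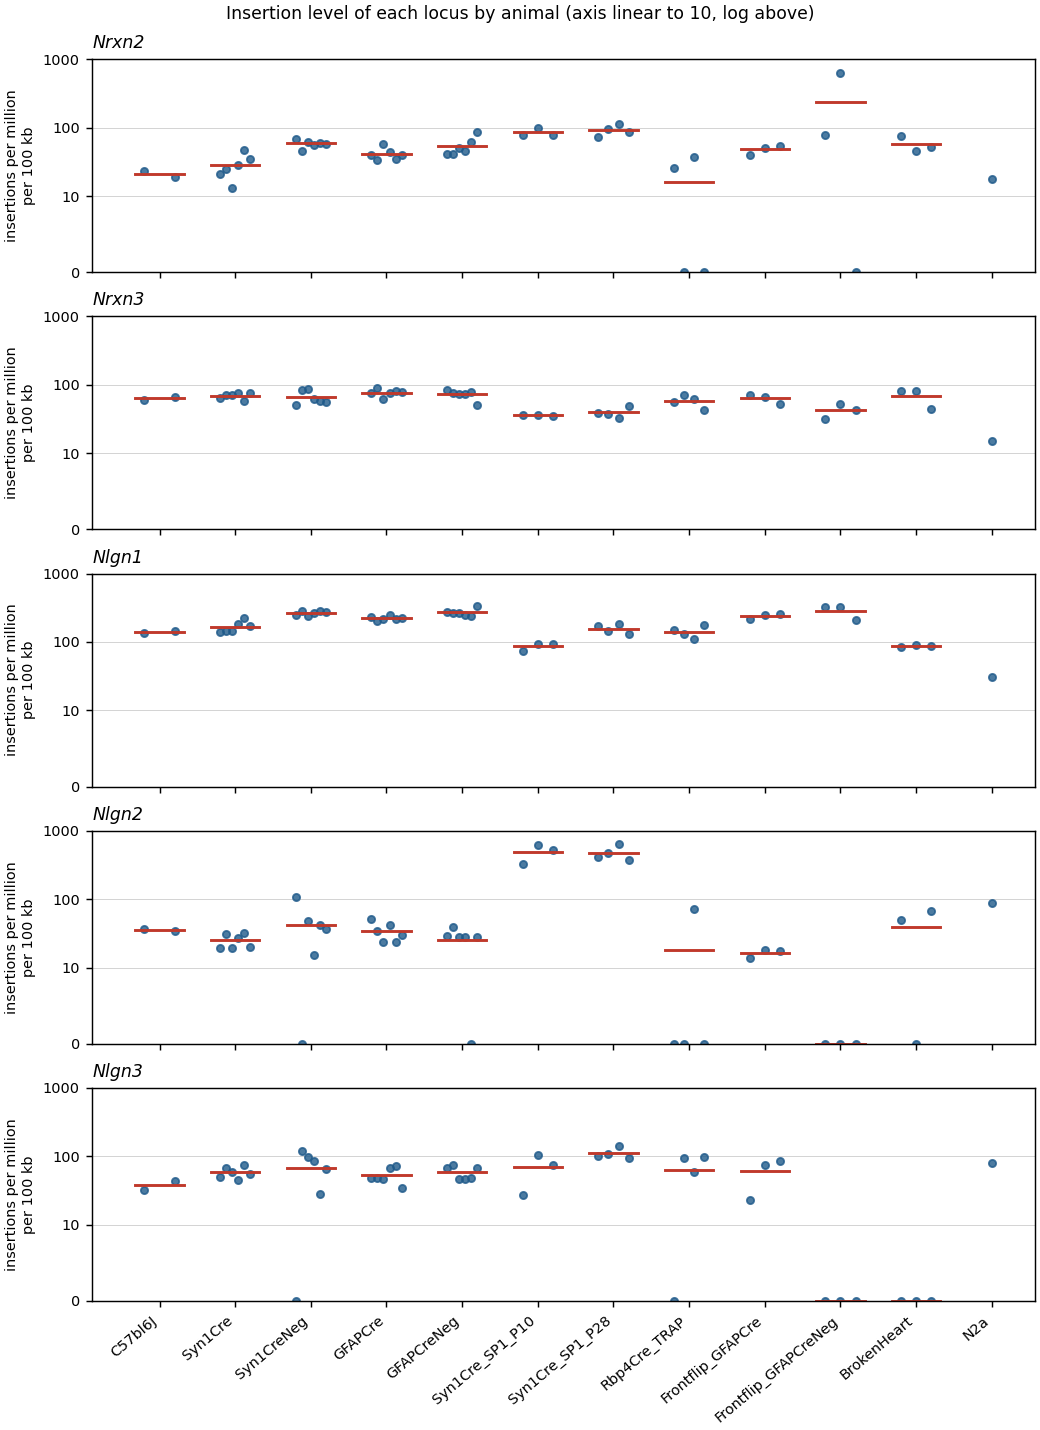
Level of each locus (IPM per 100 kb; axis linear to 10 and logarithmic above) in every animal by group; dots are animals and red lines group means. Nlgn2 is high only in the 7 animals labelled SP1 (332 to 648), and Nlgn1 is lower in every Syn1Cre animal than in every Syn1CreNeg animal.

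Whether the groups named by the Syn1 and GFAP Cre lines differ at these genes was asked by testing Syn1Cre against GFAPCre. Of the 4 member loci that passed the low-count filter, 1 was lower (background over 11643 loci: 1.28% higher and 0.867% lower, at an adjusted p under 0.05 by edgeR's quasi-likelihood test). This was Nlgn1, which fell by 0.44 on the log2 scale (-0.44 ± 0.11, SE, adjusted p = 0.0302). Nrxn2 (-0.61 ± 0.21, adjusted p = 0.145), Nrxn3 (-0.20 ± 0.10, adjusted p = 0.292) and Nlgn3 (0.05, adjusted p = 0.932) did not pass, and Nlgn2 was not tested. The Nlgn1 call was lost without any 1 of Syn1Cre animals 1, 2 or 3 or GFAPCre animals 1, 3, 4, 5 or 6 (log2 fold change -0.57 to -0.38 over all 12 omissions, adjusted p up to 0.105). Without Syn1Cre animal 5, Nrxn2 passed as well (-0.73, adjusted p = 0.0125). With Syn1Cre animals 1 to 3 alone, Nlgn1 (-0.77, adjusted p = 1.27e-07), Nrxn2 (-1.18, adjusted p = 5.86e-05) and Nrxn3 (-0.31) all passed. In that fit 1652 loci were called in place of 250, so the background above does not apply to it. Syn1Cre animals 4 to 6 were not fitted alone.

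Each Cre line was also compared with its Cre-negative group. In Syn1Cre against Syn1CreNeg, 2 of 4 tested members were lower (background over 8731 loci: 13.7% higher and 17.2% lower). Nlgn1 fell by 0.67 on the log2 scale (-0.67 ± 0.12, adjusted p = 7.76e-05) and Nrxn2 by 1.11 (-1.11 ± 0.22, adjusted p = 0.000373). Both calls held without each animal in turn. Nrxn3 (0.07, adjusted p = 0.658) and Nlgn3 (-0.21, adjusted p = 0.592) did not pass. For Nlgn1 the log2 ratio of mean levels was -0.84 among animals 1 to 3 and -0.50 among animals 4 to 6, which the labels list in different layouts, and for Nrxn2 -1.59 and -0.66.

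In GFAPCre against GFAPCreNeg, 1 of 4 tested members was lower (background over 9242 loci: 2.1% higher and 5.43% lower). Nlgn1 fell by 0.30 on the log2 scale (-0.30 ± 0.09, adjusted p = 0.0334). The call was lost when GFAPCre animal 1, 2, 5 or 6 or GFAPCreNeg animal 1, 2, 3 or 6 was left out (adjusted p up to 0.129). Within the 3 pools that held both groups, the log2 ratios of Nlgn1 were -0.15, -0.50 and -0.16, and with the pool as a block over those animals the change was -0.27 (adjusted p = 0.424). Nrxn2 (-0.32, adjusted p = 0.252) and Nrxn3 (0.07) did not pass.

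The Cre effects of the 2 lines were not shown to differ. A test of the difference itself, chosen after seeing the data, gave -0.35 ± 0.15 for Nlgn1 (Syn1 minus GFAP, adjusted p = 0.287) and -0.78 ± 0.28 for Nrxn2 (adjusted p = 0.215), with 0.717% of 10595 loci called.

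Marker genes of cell types differed in the same comparisons. Of 8 astrocyte genes, 6 were lower in Syn1Cre than in Syn1CreNeg, 3 in GFAPCre than in GFAPCreNeg and 0 in Syn1Cre than in GFAPCre. The summed astrocyte level was 577 to 1934 IPM in Syn1Cre, 2044 to 2782 in Syn1CreNeg, 783 to 1601 in GFAPCre and 1416 to 2932 in GFAPCreNeg. Syn1Cre animal 5 was highest of its group both in that sum (1934) and at Nlgn1 (225). The same animal had the fewest insertions of its group (443158), the highest Nrxn2 level (47.0) and the lowest Nrxn3 level (58.9). Of 6 interneuron genes tested, 6 were higher in Syn1Cre than in either other group, and 4 of 7 neuron genes were higher than in Syn1CreNeg. Against GFAPCre only 1 of 8 neuron genes was higher in Syn1Cre (median 0.06). The summed neuron levels of these 2 groups overlapped, at 3639 to 4253 IPM in Syn1Cre and 3336 to 4175 in GFAPCre. In GFAPCre against GFAPCreNeg, 1 of 7 neuron genes was higher. Oligodendrocyte-lineage genes were lower in Syn1Cre than in Syn1CreNeg in 2 of 3 tested (median -2.002) and higher in GFAPCre than in GFAPCreNeg in 1 of 3. The 1 microglial gene tested was lower in Syn1Cre in both of its comparisons, and the 1 endothelial gene tested was higher in Syn1Cre than in Syn1CreNeg. The part of these markers in the Nlgn1 and Nrxn2 results was not tested.

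**Figure D2:**
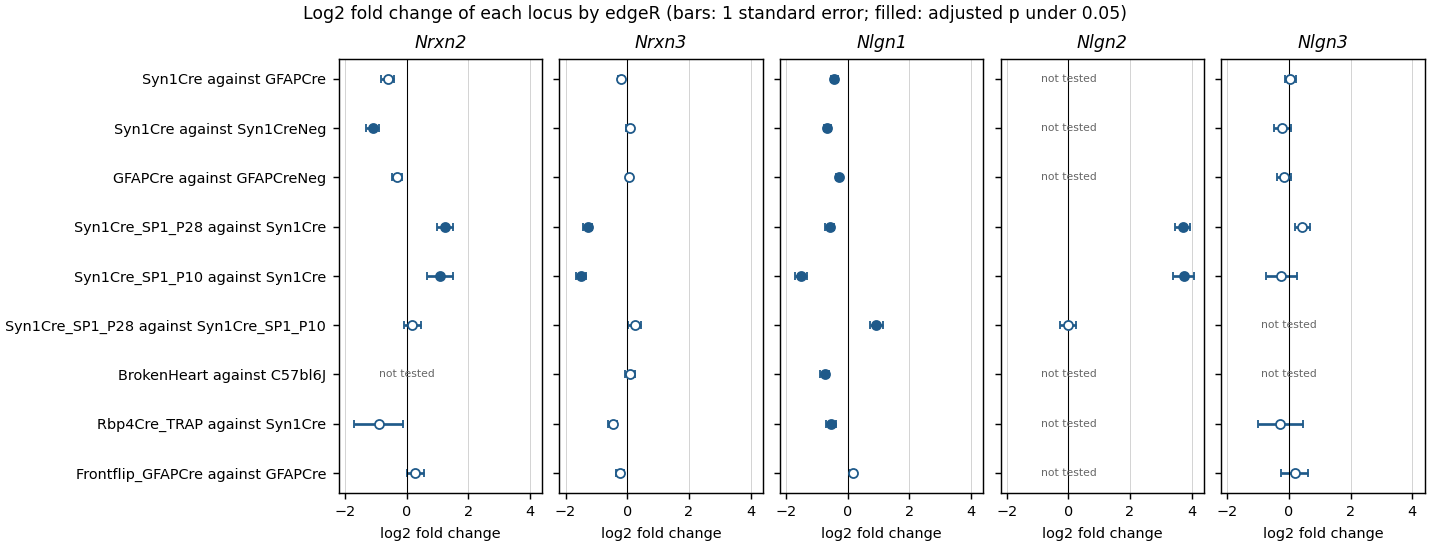
Log2 fold change of each locus (horizontal axis) in the 9 comparisons, with bars of 1 standard error; filled points have an adjusted p under 0.05 by edgeR. Nlgn2 exceeds 3.7 in both SP1 comparisons with Syn1Cre, and Nlgn1 is negative in every comparison except Syn1Cre_SP1_P28 against Syn1Cre_SP1_P10 and Frontflip_GFAPCre against GFAPCre.

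Windows of 50 kb placed the differences along the long genes. In Syn1Cre against GFAPCre (22468 windows: 1.82% higher and 1.25% lower), 1 of 19 Nlgn1 windows was lower. It was chr3:25650001-25700000, with 73.5 ± 12.96 IPM against 102 ± 10.6 (log2 fold change -0.47, adjusted p = 0.0386), and all 19 estimates were negative. The tested Nrxn2 window, chr19:6500001-6550000, was lower as well (28.3 ± 9.86 against 49.9 ± 12.3, -0.81, adjusted p = 0.0376), and 0 of 33 Nrxn3 windows passed. The count of member windows was 2 and ran from 0 to 12 as single animals were left out; it was 12 without Syn1Cre animal 5, 0 without Syn1Cre animal 1 or 2 or GFAPCre animal 1, 4 or 6, and 1 without Syn1Cre animal 3 or GFAPCre animal 3.

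In Syn1Cre against Syn1CreNeg (14950 windows: 12.6% higher and 18.1% lower), 10 of 19 Nlgn1 windows were lower. The higher share of all called windows was 41.0%, and 52.3% with total insertions as the scale. The lowest was chr3:26100001-26150000, at 64.9 ± 22.95 IPM against 145 ± 17.8 (-1.32). Next came chr3:26000001-26050000 (211 ± 104 against 477 ± 82.4, -1.28) and chr3:25900001-25950000 (126 ± 40.6 against 277 ± 48.4, -1.23). The called windows lay between 25550001 and 26200000, around and downstream of the internal start, and none lay between that window and the upstream start or at the 3′ end of the gene. The Nrxn2 window fell by 1.36 and 1 of 29 Nrxn3 windows, chr12:90200001-90250000, by 0.79.

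The GFAPCre contrast with its control (16934 windows: 1.18% higher and 4.51% lower) called 2 Nlgn1 windows. They were chr3:25900001-25950000 (181 ± 20.7 against 280 ± 76.0, -0.65) and chr3:26000001-26050000 (324 ± 59.3 against 479 ± 119, -0.59), both also lower in Syn1Cre against its control. Leaving out 1 animal gave 1 to 5 such windows.

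**Figure D3:**
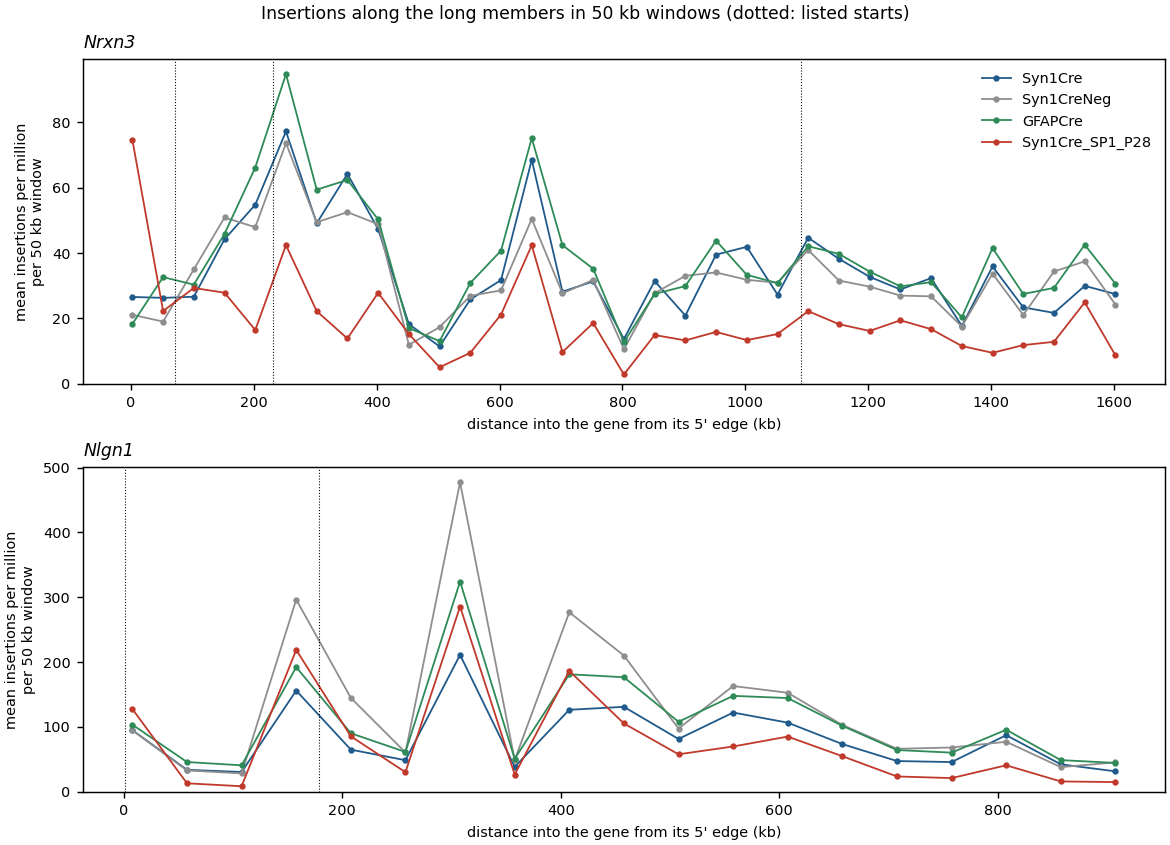
Mean IPM in 50 kb windows along Nrxn3 and Nlgn1, plotted by distance into the gene from its 5′ edge (kb) for 4 groups; dotted lines mark listed starts. In Nlgn1 the Syn1CreNeg line reaches 477 IPM about 300 kb into the gene, where Syn1Cre has 211; in Nrxn3 the SP1 line is highest at the 5′ edge (74.7 IPM) and lowest over most of the gene.

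Genes of the same pathway gave a mixed picture in these contrasts. The list held 17 neurexin ligands and 13 scaffolds and regulators of both families. In Syn1Cre against GFAPCre, 2 of 26 tested were higher and 2 lower, with a median log2 fold change of 0.01 beside 0.00 over all loci. The neurexophilins Nxph2 (2.30) and Nxph1 (2.01), secreted ligands of neurexins, were higher, and Lrrtm4 (-0.53), a postsynaptic neurexin ligand, and Gphn (-0.44), which encodes the inhibitory scaffold gephyrin, were lower. In Syn1Cre against Syn1CreNeg, 6 of 24 were higher and 4 lower (median 0.11 beside 0.02). Among them were Nxph2 (3.08), Nxph1 (2.43), the cerebellin Cbln1 (1.06), Gphn (-0.69) and Lrrtm1 (0.51). In GFAPCre against GFAPCreNeg, 1 of 22 was higher, Cbln1 (0.83), and 2 were lower, the presynaptic scaffold Cask (-0.32) and the latrophilin Adgrl3 (-0.28), with a median of 0.02 beside 0.01.

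Animals labelled SP1 were compared with Syn1Cre to ask which loci differ in their share of insertions. At day 28, 2 of 5 members were higher and 2 lower (background over 12304 loci: 25.6% higher and 25.3% lower). Nlgn2 was higher by 3.71 ± 0.23 on the log2 scale (adjusted p = 2.56e-16), ranking 12 from the top of all loci tested, and Nrxn2 by 1.23 ± 0.25 (adjusted p = 0.000249). Nlgn2 fell below the count filter in Syn1Cre against GFAPCre and passed it here through the SP1 animals, where it is high. Its p and rank are therefore descriptions and not independent support. Nrxn3 fell by 1.28 (-1.28 ± 0.15, adjusted p = 2.1e-09) and Nlgn1 by 0.59 (-0.59 ± 0.16, adjusted p = 0.00196). Nlgn3 (0.44 ± 0.25, adjusted p = 0.147) did not pass. These 4 calls held without each animal in turn.

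Marker genes of cell types differed beside these loci. Of 8 neuron markers tested at day 28, 5 were lower and 1 higher (median -1.04), and their summed level was 2322 to 2576 IPM beside 3639 to 4253 in Syn1Cre. Of 7 interneuron markers 2 were higher and 0 lower, with sums of 814 to 1019 beside 544 to 695. Of 8 astrocyte markers 0 passed, with sums of 954 to 2144 beside 577 to 1934. Single genes of the oligodendrocyte lineage (1 of 4 tested) and of endothelium (1 of 2) were lower, and 0 of 1 microglial gene passed. No neuron, interneuron or astrocyte marker was at 0, and 1 oligodendrocyte gene was. Their part in the member results was not tested.

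At day 10, 2 of 5 members were again higher and 2 lower (background over 12861 loci: 19.9% higher and 21.5% lower). Nlgn2 was higher by 3.74 ± 0.34 (adjusted p = 1.9e-12, rank 46) and Nrxn2 by 1.075 ± 0.41 (adjusted p = 0.0423). Here too Nlgn2 passed the count filter through the SP1 animals. Nrxn3 fell by 1.499 (-1.499 ± 0.15, adjusted p = 8.19e-11) and Nlgn1 by 1.52 (-1.52 ± 0.19, adjusted p = 2.24e-07). Nlgn3 (-0.24, adjusted p = 0.736) did not pass. The Nrxn2 call was lost without Syn1Cre_SP1_P10 animal 1, 2 or 3 or Syn1Cre animal 2 or 4 (adjusted p up to 0.210). Of 8 neuron markers 5 were lower and 0 higher (median -1.60; summed level 2050 to 2239 IPM), and of 7 interneuron markers 5 were higher and 0 lower (median 1.01; 1244 to 1594). Of 8 astrocyte markers 0 passed (808 to 1081), while 1 of 4 oligodendrocyte genes and 1 of 2 endothelial genes were lower. No neuron, interneuron or astrocyte marker was at 0, and 1 oligodendrocyte, 3 microglial and 1 endothelial genes were. Their part in these results was not tested. Both ages share the Syn1Cre animals, and construct, age and pool cannot be told apart in either comparison.

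Scaling bears on these values. With total insertions in place of TMM factors, the median log2 fold change of all loci moved by 0.46 at day 28 and 0.54 at day 10, and the higher share of the calls went from 50.3% to 79.6% and from 48.1% to 75.5%. At day 28 Nlgn1 then gave -0.10 (adjusted p = 0.537) and was not called, Nlgn3 gave 0.90 (adjusted p = 0.00415) and was, and Nlgn2 (4.18), Nrxn2 (1.71) and Nrxn3 (-0.80) kept their calls. At day 10 the called members kept theirs (Nlgn2 4.29, Nrxn2 1.63, Nlgn1 -0.95, Nrxn3 -0.95), and Nlgn3 turned to 0.30.

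Insertions of the SP1 groups at Nlgn2 lay upstream of its start. Nlgn2 is read on the minus strand from position 69837784, so the flank above that position is upstream. It held 45 of 46 insertions at day 10 (97.8%), 147 of 162 at day 28 (90.7%) and 34 of 47 in Syn1Cre (72.3%). The commonest site, chr11:69839130, is 1346 bp upstream of the start and inside Tmem256 (chr11:69838525-69839558), and it held 30 insertions from 4 of 4 Syn1Cre_SP1_P28 animals, 9 from 3 of 3 Syn1Cre_SP1_P10 animals and 9 from 5 of 6 Syn1Cre animals. The sites 69839003 (23 at day 28, 7 at day 10), 69839520 (17 at day 28) and 69839291 (8 at day 10) lie in the same gene. When gene bodies alone were counted, Nlgn2 did not reach the count filter, and Nlgn1 at day 28 gave -0.26 (adjusted p = 0.168). The upstream insertions cannot be assigned to Nlgn2 rather than Tmem256.

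Windows of 2 kb on each side of a listed start were also compared. That of the Nlgn2 start spans Tmem256 and the sites above, so it recounts insertions of the locus and is no separate evidence. It held 69.1, 123 and 126 IPM at day 10 and 90.6, 110, 164 and 69.3 at day 28, against 1.33 to 6.77 in Syn1Cre (median 4.97). No SP1 animal overlapped Syn1Cre. How many of all start windows separate in this way was not counted. With total insertions as the scale, the median log2 fold change of all starts was 1.30 at day 28 and 1.37 at day 10. At day 28, 1 of 3 tested member starts was higher and 1 lower (3261 starts: 33% higher and 30.4% lower), with Nlgn2 at 3.02 ± 0.28 (adjusted p = 1.98e-12). At day 10 the count was the same (3494 starts: 28.3% higher and 36.2% lower), with Nlgn2 at 2.75 ± 0.40 (adjusted p = 7.44e-07).

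The promoters below are shown because the SP1 result turns on Nlgn2 and on 2 starts of Nlgn1. Each runs 250 bases up to a listed start, from RefSeq on GRCm38.p6, in the direction of the gene (minus strand in all 3): chr11:69837785-69838034 for Nlgn2, chr3:26331910-26332159 for the upstream Nlgn1 start and chr3:26153987-26154236 for the internal one. Capitals mark GC boxes (GGGCGG on either strand), the sequence SP1 is known to bind, and TTAA, the insertion site.
Nlgn2 promoter: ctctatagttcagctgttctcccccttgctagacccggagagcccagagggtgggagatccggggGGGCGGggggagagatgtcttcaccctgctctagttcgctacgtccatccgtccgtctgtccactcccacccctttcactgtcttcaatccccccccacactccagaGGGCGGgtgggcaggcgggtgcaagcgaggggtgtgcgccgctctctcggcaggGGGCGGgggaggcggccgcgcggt
Nlgn1 upstream promoter: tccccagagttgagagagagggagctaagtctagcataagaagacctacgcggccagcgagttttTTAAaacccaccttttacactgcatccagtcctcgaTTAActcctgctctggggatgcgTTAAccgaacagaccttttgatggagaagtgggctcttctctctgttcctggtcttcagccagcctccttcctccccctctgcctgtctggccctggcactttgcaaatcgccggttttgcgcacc
Nlgn1 internal promoter: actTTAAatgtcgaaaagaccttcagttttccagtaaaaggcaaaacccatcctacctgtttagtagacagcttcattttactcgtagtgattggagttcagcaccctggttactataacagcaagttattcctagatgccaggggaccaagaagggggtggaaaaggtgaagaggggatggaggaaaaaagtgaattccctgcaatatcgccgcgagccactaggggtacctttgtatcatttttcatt
Nlgn2 holds 3 GC boxes and 0 TTAA, with 67.6% G and C, and 0 insertions of any group lay in these bases. The upstream Nlgn1 promoter holds 0 GC boxes and 3 TTAA (53.6% G and C), and the internal one 0 and 1 (43.6%). Over 32851 promoters of this length, 32.7% hold a GC box and 8.47% hold 3 or more, whereas 49.0% hold TTAA and 9.15% hold 3 or more. Of the 5 genes, 3 had entries (6 starts, 3 of them of Nrxn3 with 0 GC boxes each). None of these Nrxn3 starts lies at the 5′ edge of the gene. The Nrxn3 site that led in the SP1 groups, chr12:88722803, is 71701 bp from the nearest of them. GC boxes at that edge were therefore not examined.

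The starts of Nlgn1 depended on the scale. The upstream start at 26331909 held 110 ± 19.3 IPM at day 10 (n = 3) and 107 ± 16.5 at day 28 (n = 4), against 42.5 ± 4.24 in Syn1Cre (n = 6). With TMM factors over start windows its log2 fold change was -0.36 (adjusted p = 0.228) and -0.01 (adjusted p = 0.998), and with total insertions 1.39 (adjusted p = 0.000106) and 1.33 (adjusted p = 1.38e-06). This choice moved the median of all starts by 1.75 at day 10 and 1.32 at day 28, so the upstream start did not pass relative to other starts in these 2 kb windows. The higher share of called starts went from 43.9% to 93.0% and from 52.1% to 95.9%. In 1 kb windows with TMM factors, the upstream start was called lower at day 10 (-0.60, adjusted p = 0.0412) and not called at day 28 (-0.02, adjusted p = 0.956).

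The internal Nlgn1 start at 26153986 behaved differently. It held 21.9 ± 10.2 IPM at day 10 (n = 3), 97.2 ± 22.8 at day 28 (n = 4) and 79.5 ± 23.7 in Syn1Cre (n = 6). The log2 fold change against Syn1Cre was -3.50 ± 0.38 at day 10 (adjusted p = 2.74e-09) and -1.10 ± 0.18 at day 28 (adjusted p = 1.25e-06), and with total insertions -1.79 and 0.25, so the day 28 direction flips with the scale. Counting each position once per animal gave -1.78 at day 10 and -0.09 at day 28 (adjusted p = 0.845).

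Single sites of Nlgn1 differed between groups in the same regions. The site chr3:26332536, 627 bp upstream of the upstream start, led the locus at day 10 with 10 of 220 insertions and held 28 of 1500 at day 28. It also led in Rbp4Cre_TRAP (7 of 221) and held 29 of 4863 in C57bl6J. In Syn1Cre the leading site was chr3:26152969, 1017 bp inside the internal start, with 80 of 8621 insertions from 6 of 6 animals, and it held 83 of 10669 in GFAPCre. The sites 25903788, 26002395 and 26003692, deep in the gene, were among the top 3 of several groups, and 25903788 led in Syn1CreNeg (66), GFAPCreNeg (89) and Syn1Cre_SP1_P28 (31).

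Nrxn3 was lower in windows spread along its length and higher at its 5′ edge. In 50 kb windows at day 28 against Syn1Cre (20635 windows: 19.3% higher and 19.2% lower), 11 of 31 Nrxn3 windows were lower and 1 was higher, and 29 of 31 estimates were negative. The lowest were chr12:90100001-90150000 (9.44 ± 3.69 against 35.9 ± 11.3 IPM, -1.83) and chr12:89050001-89100000 (13.8 ± 16.03 against 64.3 ± 17.8, -1.63). The higher window, chr12:88700001-88750000, holds the 5′ edge and had 74.7 ± 23.003 against 26.5 ± 2.75 (1.41, adjusted p = 1.64e-05). It was called in all 10 fits that left out 1 animal.

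Close to that edge, the first 5 kb of the Nrxn3 body held 110 ± 23.6 IPM at day 10 (18.8% of the locus) and 69.0 ± 23.1 at day 28 (8.15%). The same 5 kb held 13.7 ± 2.11 in Syn1Cre (1.14%) and 6.52 ± 2.65 in GFAPCre. The site chr12:88722803, just inside the edge, led in both SP1 groups, with 10 insertions from 3 of 3 animals and 23 from 4 of 4. In Syn1Cre and GFAPCre the leading sites were chr12:88993911 (35 and 30) and chr12:88994050 (34 and 27), far inside the gene.

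The remaining called windows of that comparison were those of the other genes. Nlgn1 had 2 higher and 7 lower of 19, the lowest being chr3:25450001-25500000 (15.9 ± 11.3 against 42.2 ± 7.07, -1.65) near the 3′ end, and the higher ones being the windows of its 2 starts (0.55 and 0.53). Leaving out single animals gave 0 to 4 higher and 3 to 9 lower. In the 2 kb windows of the same starts, the internal start was called lower (-1.10) and the upstream start was not called (-0.01). TMM factors were computed apart for 50 kb and 2 kb windows. The log2 fold changes of the 2 kinds of window are therefore not on 1 scale. Nlgn2 had its 1 window, chr11:69800001-69850000, at 226 ± 45.9 against 10.9 ± 1.66 (4.37). Both tested Nrxn2 windows were higher, chr19:6400001-6450000 (34.5 ± 18.5 against 9.98 ± 2.59, 1.87) and chr19:6500001-6550000 (90.5 ± 14.2 against 28.3 ± 9.86, 1.71), and 1 of 2 Nlgn3 windows, chrX:101250001-101300000, which is mostly Med12, was higher by 0.95. The Nlgn3 call was lost without Syn1Cre_SP1_P28 animal 1, 3 or 4 or Syn1Cre animal 3, 4 or 6, and both windows were called without Syn1Cre animal 5.

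In Nrxn2, insertions of all cortex groups gathered near the upper end of the gene. The table used here gives no strand for Nrxn2 or Nlgn3, so their ends are named by position. The site chr19:6532983, 234 bp inside the upper end, led in Syn1Cre (23 of 205), GFAPCre (41 of 281), Syn1Cre_SP1_P28 (17 of 129) and Syn1Cre_SP1_P10 (5 of 31). The uppermost 5 kb of the body held 38.5% of the locus in Syn1Cre, 61.6% in Syn1CreNeg, 49.5% in GFAPCre, 45.2% at day 10 and 33.3% at day 28. The SP1 groups also used chr19:6501646 (11 at day 28, 4 at day 10) and chr19:6489248 (9 and 4), the latter with 9 in Syn1Cre too. At the lowermost 5 kb Syn1Cre_SP1_P28 held 12 insertions (10.5 ± 1.88 IPM, n = 4), and Syn1Cre held 4 (0.83 ± 0.84, n = 6).

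Nlgn3 insertions lay mostly above the gene body. The upper flank held 69.7% of the locus in Syn1Cre, 77.1% at day 28 and all 8 insertions at day 10. The site chrX:101329234, 7884 bp beyond the upper end, held 25 of 132 in Syn1Cre, 30 of 116 in GFAPCre, 22 of 48 at day 28, 7 of 8 at day 10 and 11 of 27 in N2a. It was the leading site in each of these groups.

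**Figure D4:**
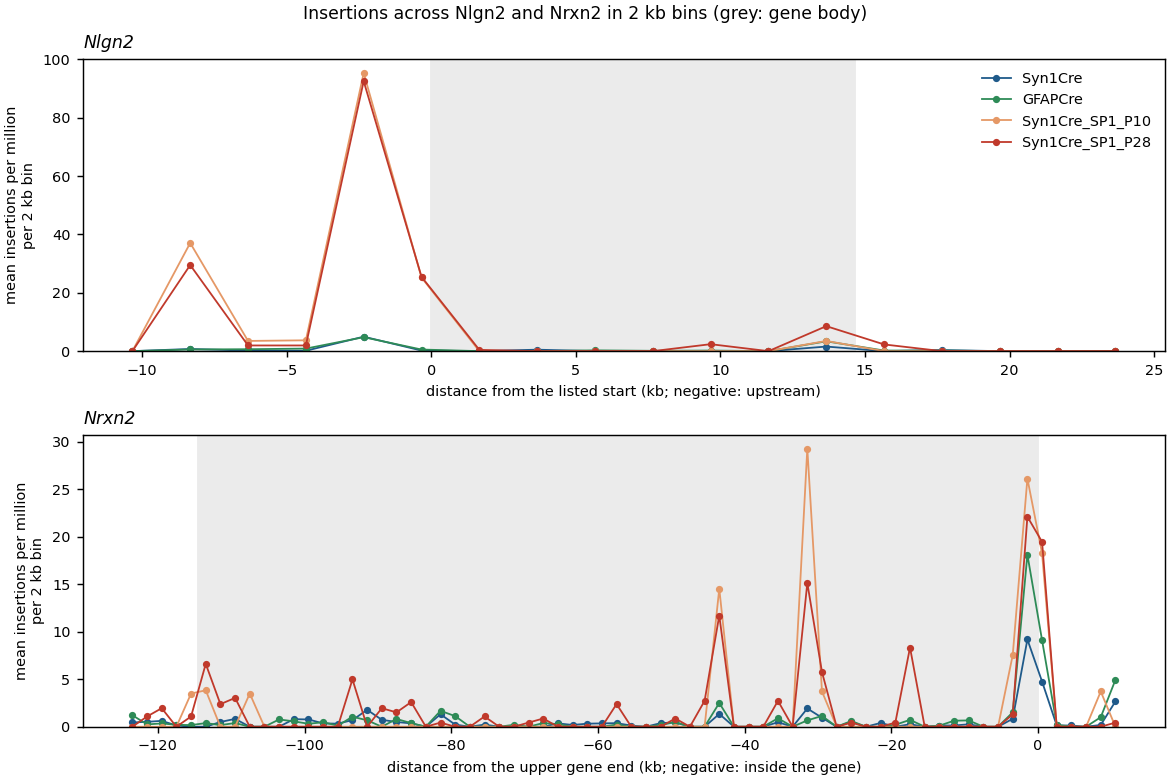
Mean IPM in 2 kb bins across Nlgn2 (distance from its listed start, kb, negative upstream) and Nrxn2 (distance from the upper gene end, kb) in 4 groups, with the gene body in grey. The SP1 groups rise just upstream of the Nlgn2 start, reaching 95.3 and 92.5 IPM in a bin, where Syn1Cre and GFAPCre stay at or below 4.96, and all groups have a peak at the upper end of Nrxn2.

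Pathway genes were counted in the SP1 groups on both scales. At day 28 with TMM factors, 17 of 26 were lower (beside 25.3% of all loci) and 3 higher (25.6%), with a median of -0.74 beside -0.06 over all loci. Those with the largest changes were Shank1 (1.86), an excitatory scaffold, and Cbln2 (-1.69), Dlg2 (-1.63), Lrrtm4 (-1.61), Nxph2 (-1.49) and Lrrtm3 (-1.41). At day 10, 15 of 26 were lower (beside 21.5%) and 2 higher (19.9%), with a median of -1.11 beside -0.28, led by Lrrtm4 (-2.98), Cbln2 (-2.73), Lrrtm3 (-2.15), the neuroligin-binding Mdga2 (-2.10), Shank1 (2.02) and the latrophilin Adgrl2 (-1.96). With total insertions, counted after seeing the data, 12 of 26 were lower at day 28 (beside 10.3% of all loci) and 5 higher (median -0.27 beside 0.40), and 10 of 26 were lower at day 10 (9.26%) and 5 higher (-0.57 beside 0.27). Both comparisons share the Syn1Cre animals.

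Between day 28 and day 10 of the SP1 groups, 1 of 4 tested members was higher (background over 3564 loci: 6.71% higher and 4.21% lower). The higher share of the calls was 61.4%, and 44.5% with total insertions as the scale. Nlgn1 levels were 173, 143, 181 and 131 at day 28 and 74.2, 93.3 and 92.4 at day 10, with no overlap. How many of all loci separate between the ages was not counted. The log2 fold change of Nlgn1 was 0.93 ± 0.20 (adjusted p = 0.00628). Without Syn1Cre_SP1_P10 animal 3 it was 0.96 (adjusted p = 0.0640), and only 7 loci were then called of 389. Most library pools of Syn1Cre_SP1_P28 animal 3 were listed with Syn1Cre_SP1_P10 animal 2, and most of animal 4 with Syn1Cre_SP1_P10 animals 1 and 3, whereas animals 1 and 2 were mostly listed without day 10 animals. Within these shared pools Nlgn1 stood at 181 beside 93.3 (log2 ratio 0.95) and at 131 beside 74.2 and 92.4 (0.65). A fit over these 5 animals with the pool as a block, chosen after seeing the data, gave 0.98 (adjusted p = 0.00014), with 637 loci called in place of 389. Nrxn2 (0.18, adjusted p = 0.690), Nrxn3 (0.24, adjusted p = 0.465) and Nlgn2 (-0.01, adjusted p = 0.990) did not pass, and Nlgn3 was not tested.

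The internal Nlgn1 start also differed between the ages. It had 86.2, 110, 121 and 71.0 IPM at day 28 and 23.03, 11.1 and 31.5 at day 10. It was the only 1 of 3 tested member starts called (777 starts: 6.82% higher and 1.16% lower; higher share of calls 85.5%, and 11.2% with total insertions), at 2.57 ± 0.38 (adjusted p = 3.17e-05) with TMM factors and 2.03 (adjusted p = 0.0236) with total insertions. The upstream start (0.56, adjusted p = 0.206) and the Nlgn2 start (0.44, adjusted p = 0.362) did not pass and turned to -0.058 and -0.067 with total insertions. The day 10 value rests on 6 insertions in all, and the summed astrocyte level was 954 to 2144 IPM at day 28 and 808 to 1081 at day 10; 1 of 4 astrocyte markers and 1 of 7 neuron markers tested were higher at day 28 and 2 of 5 interneuron markers lower. Their part in the result was not tested.

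Of 16 pathway genes tested between the ages, 6 were higher and 1 lower (median 0.54 beside 0.01 over all loci). With total insertions, a count added after seeing the data, 4 were higher and 1 lower. Lrrtm4 (1.41), Gphn (0.91), Mdga2 (0.86), Adgrl2 (0.79) and Adgrl3 (0.77) were among those higher, and Nxph1 (-0.86) was lower.

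DNA-read BrokenHeart cortex was set against RNA-read C57bl6J cortex. Of 2 tested members 1 was lower (background over 1883 loci: 18.4% higher and 21.9% lower). Nlgn1 fell by 0.75 (-0.75 ± 0.15, adjusted p = 8.84e-05), and the call held without each animal in turn. Nrxn3 levels of 79.9, 80.5 and 44.7 spanned the 60.6 and 66.3 of C57bl6J, and its log2 fold change of 0.09 (adjusted p = 0.671) did not pass. It was -0.50 (adjusted p = 0.0454) without BrokenHeart animal 2 and -0.43 (adjusted p = 0.0425) without the low-count filter, so its direction is not settled. Of 15 pathway genes tested, 10 were lower and 0 higher (median -0.76 beside 0.01), led by Mdga2 (-1.52), the postsynaptic ligand Lrrtm2 (-1.16) and Nxph1 (-1.13). Of 7 neuron markers tested, 4 were lower and 0 higher (median -0.66), with summed levels of 2211 to 2790 IPM in BrokenHeart and 3482 to 3658 in C57bl6J. Of 2 interneuron markers 1 was higher and 1 lower, and of 3 astrocyte markers 1 was higher. No marker of these lists was at 0 in BrokenHeart, and the part of these genes in the Nlgn1 result was not tested. The read-out and the virus differ together in this comparison and cannot be told apart.

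In Rbp4Cre_TRAP against Syn1Cre, 1 of 4 tested members was lower (background over 10816 loci: 0.268% higher and 2.55% lower). Nlgn1 had -0.55 ± 0.15 (adjusted p = 0.0297), beside a median of -0.32 over all loci. With total insertions it gave -0.27 (adjusted p = 0.256), and the median moved by 0.24 and the higher share of calls from 9.51% to 41.8%. The call was lost without Rbp4Cre_TRAP animal 3 or 4 or Syn1Cre animal 1, 2, 3, 4 or 6 (adjusted p up to 0.173). Nrxn3 (-0.48, adjusted p = 0.0639) and Nrxn2 (-0.90, adjusted p = 0.634) did not pass; Nrxn3 passed without Rbp4Cre_TRAP animal 2 (-0.69, adjusted p = 0.0159) or Syn1Cre animal 5 (-0.53, adjusted p = 0.0233). Nrxn2 had 4 insertions and Nlgn2 1 in this group, so differences there were not detectable at this depth. Of 25 pathway genes, 4 were lower and 0 higher, Nxph1 by the most (-3.00). Of 7 interneuron markers 5 were lower and 0 higher, 1 of 8 neuron markers was higher and 0 of 7 astrocyte markers passed; their part in the Nlgn1 result was not tested.

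In Frontflip_GFAPCre against GFAPCre, 0 of 4 tested members were called (background over 10475 loci: 1.08% higher and 0.305% lower; higher share of calls 77.9%, and 63.9% with total insertions). Nlgn1 levels were 219, 247 and 256 in Frontflip_GFAPCre, overlapping GFAPCre, and 0 of 23 pathway genes passed. None of the 4 members had an unadjusted p under 0.05 by edgeR (the lowest was 0.0535, for Nrxn3), and DESeq2 also called 0.

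The group profiles of the members were compared with those of all other loci of sufficient count. Over the 11 animal groups, the loci most like Nrxn2 by Pearson's correlation of log2 group means were Pank1 (0.97), Ptch1 (0.97) and Rasa2 (0.96). Those most like Nrxn3 were Lrrc7 (0.98), Gabrg3 (0.96) and Grm8 (0.96), and those most like Nlgn1 were Cadm2 (0.99), Clasp2 (0.97) and Adgrl3 (0.97). For Nlgn2 they were Wipi1 (0.99), Jkamp (0.97) and Sin3a (0.97), and for Nlgn3 Cdk5r2 (0.99), Letm2 (0.99) and Cxxc5 (0.98). Among the members themselves the correlations ran from -0.59 for the pair of neurexins to 0.57 for Nlgn2 with Nlgn3. Without the 3 shallowest groups, left out after seeing the data, the values over 8 groups were 0.92 to 0.96 for the loci named with Nrxn2, 0.99 for those of Nrxn3, 0.97 to 0.99 for those of Nlgn1 and Nlgn2, and 0.63, 0.55 and 0.93 for Cdk5r2, Letm2 and Cxxc5 with Nlgn3. The members' own correlations then ran from -0.94 (Nrxn3 with Nlgn2) to 0.85 (Nrxn2 with Nlgn3), so the pairs at either end depend on which groups enter. Groups share libraries and depth, and 4112 to 4126 loci were searched, so these values are descriptions.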

How the data were processed

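The deposited tables list insertions as counts of rows, 1 per insertion with its position, and 0 columns were left unmapped; the authors' alignment named Novoalign, Bowtie2 and mm10 per the submitters' processing notes, and further steps are not given in the sources used here. Each animal's table was counted over gene bodies with 10 kb flanks, 50 kb windows and 2 kb on each side of RefSeq starts, and divided by its total for levels. Groups were compared over animals with edgeR 4.0.16 (R 4.3.3; TMM factors, filterByExpr, quasi-likelihood test, Benjamini-Hochberg over all features of a table, threshold 0.05), each comparison with its own groups. The procedure was tested on simulated counts. Alternatives included DESeq2 1.42.0, total insertions, no filter, distinct positions, gene bodies alone, other windows and blocks. Members and gene lists were chosen with earlier results of these data known. The named windows were the 3 highest and 3 lowest of each comparison among those called, and named pathway genes at most the 6 with the largest changes among those called; other named windows, and sites, were chosen after their values were seen. A listed gene is not reported by name here. The labels do not describe how animals of a group relate. Replicate numbers did not pair animals: same-number correlations ran from -0.21 to 0.167. Depths bound precision and cover counting error only.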

Additional observations from a re-analysis of the deposited data

Results flagged for a closer look

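Each gene was examined in each group of 4 to 10 animals, 30 sets of levels in all, and in 4 sets 1 animal stood apart from the rest by Dixon's criterion, which chance meets in about 1 of 20 sets. The sets share animals, and 1 animal accounts for 2 of the 4. GFAPCreNeg animal 6 was lowest of its group at Nrxn3 (51.2 IPM per 100 kb) and highest at Nlgn1 (339). GFAPCreNeg animal 5 had a level of 0 at Nlgn2. Rbp4Cre_TRAP animal 3 had 72.0 at Nlgn2, from 1 insertion, while the other animals of that group were at 0.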

How the results depend on the processing

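Across other settings, 213 of 245 member log2 fold changes kept direction and side of the threshold, and 307 of 353 did with 1 animal left out; the cause of each change was not tested unless fewer animals or features entered. Calls among members in Syn1Cre against GFAPCre went from 1 to 0 by DESeq2 and 3 with Syn1Cre animals 1 to 3 alone. In GFAPCre against GFAPCreNeg they went from 1 to 0 with distinct positions, gene bodies, the replicate block or the pool block. They went from 4 to 2 with gene bodies and to 3 without insertions near gene ends at day 28 against Syn1Cre, from 4 to 3 with either at day 10, and from 1 to 2 without a filter in BrokenHeart. In Rbp4Cre_TRAP they went from 1 to 0 by DESeq2, total insertions, gene bodies, without insertions near gene ends or with the replicate block, and to 2 without a filter. The replicate block pairs numbers that the data do not bear out, and only there and in GFAPCre did it change a count of member calls. Member windows in Syn1Cre against GFAPCre went from 2 to 1 (DESeq2), 4 (total) and 0 (distinct), and in GFAPCre against its control from 2 to 1 (distinct). Member starts went from 2 to 0 at day 28 (1 kb windows or distinct positions, where Nlgn2 was not tested) and from 1 to 0 between the ages (1 kb or distinct). At day 10 they went from 2 to 1 (1 kb), and the 1 call was the upstream Nlgn1 start, lower there and not called in 2 kb windows.

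Directions turned for Nlgn3 in Syn1Cre against GFAPCre (-0.043 without gene ends), Syn1CreNeg (0.23, distinct), GFAPCre against its control (0.10, pool block), day 10 (0.30, total; 0.59, without gene ends) and Rbp4Cre_TRAP (0.13, without gene ends). They turned for Nlgn2 between the ages (0.015 by DESeq2, 0.020 without a filter, 0.15 with the replicate block, 0.11 with the pool block) and Nrxn3 in BrokenHeart (-0.43 without a filter, -0.034 distinct). With total insertions the start values were 0.25 (internal Nlgn1, day 28), 1.33 and 1.39 (upstream Nlgn1, days 28 and 10), -0.058 (upstream, between ages) and -0.067 (Nlgn2, between ages); distinct positions gave 0.16 for the upstream start at day 28.

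With 1 animal left out, member calls ranged from 0 to 2 (Syn1Cre against GFAPCre), 2 to 2 (Syn1CreNeg), 0 to 1 (GFAPCre against its control), 4 to 4 (day 28), 3 to 4 (day 10), 0 to 1 (between ages), 1 to 2 (BrokenHeart), 0 to 2 (Rbp4Cre_TRAP) and 0 to 0 (Frontflip). Member windows ranged from 0 to 12, 8 to 16, 1 to 5 and 15 to 28 in the order of the report, and starts from 2 to 2, 2 to 2 and 0 to 1. Nlgn3 ranged from -0.024 to 0.13, -0.46 to 0.026, -0.68 to 0.10 (day 10), -0.86 to 0.18 (Rbp4Cre_TRAP) and -0.20 to 0.65 (Frontflip), Nlgn2 between ages from -0.19 to 0.17, Nrxn3 in BrokenHeart from -0.50 to 0.092 and the upstream Nlgn1 start at day 28 from -0.15 to 0.15.

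Counts over all loci moved by over 1.5 times in several settings. Syn1Cre against GFAPCre called 250 (144 distinct, 1652 with animals 1 to 3, 159 to 779 with 1 animal left out), Syn1CreNeg 2699 (1794 distinct) and GFAPCre against its control 696 (441 distinct, 51 pool block, 329 to 1088). Day 28 called 6265 (3776 distinct, 2868 gene bodies, 2438 without gene ends), day 10 5324 (2421 gene bodies, 2105 without gene ends) and the ages 389 (162 DESeq2, 187 distinct, 201 gene bodies, 156 without gene ends, 637 pool block, 7 to 548). BrokenHeart called 760 (1383 without a filter, 345 to 901), Rbp4Cre_TRAP 305 (200 DESeq2, 194 total, 714 no filter, 635 distinct, 177 gene bodies, 134 block, 138 to 499) and Frontflip 145 (225 DESeq2, 310 no filter, 334 distinct, 64 gene bodies, 89 without gene ends, 305 block, 13 to 383). Windows called 688 (430 DESeq2, 297 distinct, 380 to 1762), 4589 (2927 distinct) and 964 (529 to 1706), and starts 2069 (1247 at 1 kb, 3598 at 5 kb, 172 distinct), 2252 (1496, 3501, 471) and 62 (14 DESeq2, 98 total, 12 at 1 kb, 160 at 5 kb, 0 distinct, 19 to 74). Low depth limits Rbp4Cre_TRAP, BrokenHeart, Frontflip_GFAPCreNeg and day 10 at the short genes.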

Other observations

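The strand recorded for each insertion was set against that of the gene. What the strand column denotes is not given in the sources used here, so an insertion in the direction of the gene is one whose recorded strand matches the gene's. At Nlgn1, 61.6% ± 3.60 (SD, n = 6) of the insertions of a Syn1Cre animal lay in the direction of the gene, beside 59.8% ± 2.53 (n = 6) in GFAPCre and 67.4% ± 4.28 (n = 4) in Rbp4Cre_TRAP. BrokenHeart, read from DNA, had 45.9% ± 5.21 (n = 3). Groups read from RNA also reached low shares at Nlgn1, with 48.5% in N2a and 42.1% in Frontflip_GFAPCreNeg (47 insertions). Between these lay Syn1Cre_SP1_P10 (53.4%), GFAPCreNeg (55.2%), Syn1Cre_SP1_P28 (55.8%) and Syn1CreNeg (56.7%), and C57bl6J (61.1%) and Frontflip_GFAPCre (59.6%) were near Syn1Cre. At Nrxn3 the share was 55.4% ± 1.93 (n = 6) in Syn1Cre, 54.4% ± 1.29 (n = 6) in GFAPCre, 39.7% ± 1.85 (n = 4) in Syn1Cre_SP1_P28 and 40.1% ± 7.25 (n = 3) in Syn1Cre_SP1_P10. The table of N2a had 41.1% at Nrxn3. These shares were not tested.

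In N2a the leading Nlgn2 site was chr11:69845843, 8059 bp upstream of the start, with 16 of 25 insertions. The same site held 5 of 46 in C57bl6J. In GFAPCre and C57bl6J the leading site was chr11:69823567, near the 3′ end of the gene, with 14 of 64 and 8 of 46.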
